A study of Homo sapiens with 20 samples.

Results

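Integrins are the cell surface receptors that hold cells to the matrix, and laminins and fibronectin are among the matrix proteins they bind. The genes of these receptors and ligands were followed through RNA-seq of U2-OS, an established human osteosarcoma cell line. Members were taken by gene symbol alone: integrin α and β subunits, laminin α, β and γ chains, and FN1, which encodes fibronectin. They came to 38 of the 20314 genes in the deposited count table, 25 integrin subunits, 12 laminin chains and FN1. ITGB6 was not analysed here. The 20 libraries formed 4 groups of 5 that shared the same line and culture medium. Untreated cells received no irradiation and no labelled shRNA; the first irradiated group was taken 90 minutes after 20 Gy of ionising radiation (IR), and the second 7 days after the same dose, when the study describes the cells as senescent. The last group was not irradiated and carried an shRNA against NFKBIA, the gene of the NF-κB inhibitor IκBα. The study's methods describe lentiviral shRNA cells put through clonal selection with puromycin, and the study describes the NFKBIA shRNA as induced by doxycycline, a drug that the labels name for no library. No library is labelled as a control shRNA, so the vector, the selection, the drug and the knockdown cannot be told apart.

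An integrin is a pair of an α and a β subunit, and the pairing sets what it binds. ITGB1 pairs with most α subunits: with ITGA1, ITGA2, ITGA10 and ITGA11 it binds collagens, with ITGA3, ITGA6 and ITGA7 laminins, and with ITGA5 or ITGA8 the RGD sequence of fibronectin and related proteins. ITGAV pairs with several β subunits to bind RGD ligands, ITGA4 and ITGA9 bind fibronectin or tenascin segments and VCAM1, and ITGAM, ITGAX, ITGAL and ITGAD pair with ITGB2 on leukocytes. Each laminin is a trimer of an α, a β and a γ chain that assembles inside the cell, and LAMA3 and LAMB3 are chains of the laminin of epithelial anchoring contacts. Bone cells reach collagen, fibronectin and bone matrix proteins through these receptors.

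The windows upstream of 5 genes whose levels are described at length are shown as context, and no expression result rests on them. The genes are LAMA3, which had the lowest fold change of any laminin chain in the knockdown, its partner chain LAMB3, the chromosome 5 neighbours ITGA1 and ITGA2, which were both higher at 7 days, and FN1. Each is the 250 bases before an annotated gene start in RefSeq (GRCh38.p14), 5′ to 3′ on the gene's strand, while the counts themselves were made on hg19. Capitals mark matches on either strand to the AP-1 motif TGANTCA or to the NF-κB consensus, known as the kappaB motif. The LAMA3 window is chr18:23872770-23873019, plus strand, the LAMB3 window chr1:209651375-209651624, minus strand, the ITGA1 window chr5:52787666-52787915, plus strand, the ITGA2 window chr5:52989102-52989351, plus strand, and the FN1 window chr2:215436069-215436318, minus strand.
LAMA3: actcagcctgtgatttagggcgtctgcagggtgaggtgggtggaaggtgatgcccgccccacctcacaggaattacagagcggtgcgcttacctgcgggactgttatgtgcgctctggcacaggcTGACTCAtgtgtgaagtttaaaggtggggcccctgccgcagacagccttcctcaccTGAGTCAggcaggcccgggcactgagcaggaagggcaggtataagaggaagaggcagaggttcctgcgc
LAMB3: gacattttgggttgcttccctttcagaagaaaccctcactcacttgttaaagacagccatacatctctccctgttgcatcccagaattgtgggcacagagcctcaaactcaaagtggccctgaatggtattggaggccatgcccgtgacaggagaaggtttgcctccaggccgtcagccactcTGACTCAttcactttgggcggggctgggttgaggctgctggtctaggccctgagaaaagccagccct
ITGA1: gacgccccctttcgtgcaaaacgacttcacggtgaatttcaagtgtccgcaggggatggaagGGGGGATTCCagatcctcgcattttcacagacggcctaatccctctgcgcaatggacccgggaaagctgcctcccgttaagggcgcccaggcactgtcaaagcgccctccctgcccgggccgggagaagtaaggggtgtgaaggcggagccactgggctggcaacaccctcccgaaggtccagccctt
ITGA2: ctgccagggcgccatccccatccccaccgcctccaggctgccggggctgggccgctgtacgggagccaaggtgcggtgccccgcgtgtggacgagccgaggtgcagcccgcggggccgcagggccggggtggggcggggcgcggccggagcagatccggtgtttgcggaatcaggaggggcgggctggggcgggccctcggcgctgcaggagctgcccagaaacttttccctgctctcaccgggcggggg
FN1: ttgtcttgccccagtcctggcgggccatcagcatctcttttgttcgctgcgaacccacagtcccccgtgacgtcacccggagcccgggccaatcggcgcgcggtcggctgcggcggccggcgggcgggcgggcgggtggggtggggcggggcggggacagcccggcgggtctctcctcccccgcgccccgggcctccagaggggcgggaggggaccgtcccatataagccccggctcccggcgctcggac

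The capitals in LAMA3 are 2 AP-1 matches that start 125 and 69 bases before the gene start, and LAMB3 held a match at 67 bases. Those were the only AP-1 matches among 24 tested member genes with 31 windows, a share of 6.45% of their windows against 6.57% of all 35116 windows in the table. The capitals in ITGA1 are a kappaB match 188 bases upstream. Such matches stood in 5 member genes, ITGA1, ITGA10, ITGA11, ITGA5 and, in windows of LAMB3 not printed here, LAMB3, or 19.4% of member windows against 5.21% of all windows. The LAMB3 matches stand in 2 overlapping windows that hold the same sites, so these are counted in both. ITGA2 and FN1 held neither motif within the 250 bases. In RefSeq order by gene start, ITGA1 and ITGA2 are neighbours apart from PELO, whose gene overlaps ITGA1, while ITGAM, ITGAX and ITGAD are adjacent on chromosome 16, and LAMB1 and LAMB4 on chromosome 7.

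Libraries held 22535659 to 40390961 counted reads, and levels are given as CPM, counts relative to the library total, scaled by edgeR's TMM factors, which ran from 0.933 to 1.02. The targeted gene NFKBIA stood at 31.3 ± 7.25 CPM (SD, n = 5) in untreated cells and 12.1 ± 0.667 CPM with the shRNA. Untreated library 5 stood apart, with a median correlation of 0.978 to its own group against at least 0.989 in every other library, and was sequenced in another lane than the other 4 untreated libraries. Lanes and groups overlapped little, and no lane held untreated cells together with 7 day or knockdown cells. Of 9 osteoblast lineage markers 6 passed 1 CPM in some library, while SP7, IBSP and COL1A2 stayed near 0; the summed level of the list was 4020 to 4776 CPM in untreated libraries, 3688 to 3998 at 90 minutes, 2710 to 3130 at 7 days and 2820 to 2986 in the knockdown. COL1A1 and SPARC made up most of this sum and moved apart. COL1A1 was called lower in the knockdown alone (-1.68 ± 0.07 on the log2 scale) and SPARC at 7 days alone (-0.75 ± 0.05). ALPL was higher at 7 days (0.77 ± 0.18) and lower in the knockdown (-1.96 ± 0.20). Untreated library 5 held 48.4 CPM of ALPL, within the 7 day range of 41.2 to 55.1 CPM, and 206 CPM of RUNX2. The other 4 untreated libraries held 18.1 to 26.2 CPM of ALPL and 82.5 to 110 CPM of RUNX2.

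In untreated cells FN1 had the highest mean level of the family, followed by ITGB1 and ITGA3. Per kilobase of exon, FN1 stood at 269.8 ± 88.1 CPM per kb, ITGB1 at 195 ± 21.2, ITGA3 at 122 ± 12.6 and ITGB5 at 83.5 ± 14.8 (SD, n = 5). The FN1 and ITGB1 ranges overlapped, whereas ITGB1 lay above ITGA3 and ITGA3 above ITGB5 in every library. Among the members that followed were LAMB3 at 63.2 ± 11.1, LAMB1 at 51.7 ± 5.74, LAMC1 at 50.9 ± 4.90, ITGAV at 40.9 ± 5.31 and LAMB2 at 34.9 ± 2.52 CPM per kb, and each of these overlapped the next of those named. The α chain best represented was LAMA5 at 24.5 ± 4.40 CPM per kb, with LAMA1 at 6.74 ± 1.21 well below it. ITGA5 stood at 20.1 ± 1.47, ITGA6 at 17.2 ± 2.15, ITGA2 at 13.0 ± 3.62 and ITGA7 at 11.1 ± 2.36, and most other members were under 5 CPM per kb on average.

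A filter on low counts left 34 members among 14992 genes tested, 16 α and 6 β subunits, 11 laminin chains and FN1. The exceptions were ITGAD, ITGAL, ITGB7 and LAMB4, which had few counts in every group. ITGAL had 8 counts in untreated library 5 and at most 2 in any other library. A gene is called higher or lower below when its log2 fold change passed 0.5 in size at an adjusted p under 0.05. These p-values come from the quasi-likelihood test of edgeR, with Benjamini-Hochberg adjustment across the whole table of genes tested. Fold changes are given with their standard error. In bulk RNA, fewer cells of a type and less RNA per cell cannot be told apart.

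**Figure D1:**
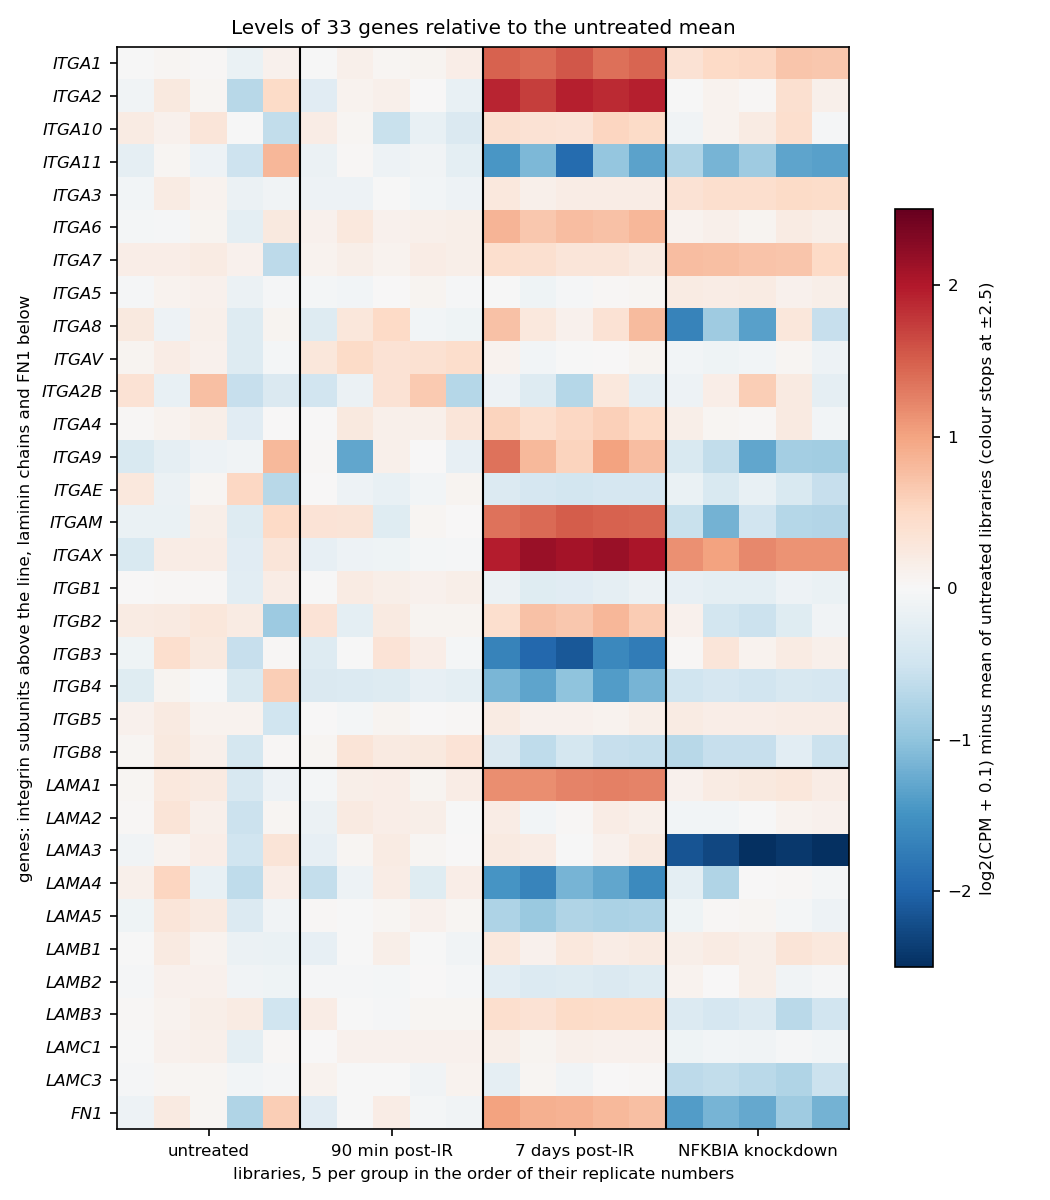
Rows are 33 of the 34 genes tested, with integrin subunits above the line and laminin chains and FN1 below, and columns are the 20 libraries in 4 groups of 5; colour is log2(CPM + 0.1) minus the mean of the untreated libraries. The 90 minute block resembles the untreated block, the 7 day block is high for ITGA1, ITGA2, ITGAM, ITGAX and LAMA1 and low for ITGB3 and LAMA4, and the knockdown block is lowest for LAMA3.

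At 90 minutes after irradiation no integrin, laminin chain or FN1 was called, 0 of 34 against 3.66% of all genes tested (2.08% higher and 1.57% lower), and DESeq2 also called 0. At an unadjusted p under 0.05 there were 4 members, beside 5003 of the 14992 genes tested. The receptor with the clearest shift was ITGAV, the RGD-binding α subunit. It measured 351, 380.3, 357, 267 and 324 CPM in untreated libraries 1 to 5 and 407, 462, 429, 434 and 449 CPM at 90 minutes. All 5 irradiated libraries lay above all untreated ones, and ITGAV was the single member whose groups did not overlap, 1 higher and 0 lower against 7.42% and 4.85% of all genes tested, or 12.3% in either direction. It had a log2 fold change of 0.38 ± 0.07 under the size threshold (edgeR adjusted p = 5.72e-04). ITGAV stood at 353, 316, 329.7, 337 and 351 CPM at 7 days and 317, 309.9, 319, 343 and 307 CPM in the knockdown, ranges that overlapped untreated cells. Within lane 3, which held untreated library 5 and 90 minute libraries 1 to 3, 5 members were higher and 3 lower, against 24.9% of all genes tested in that lane, and all 8 of these comparisons rest on that single untreated library.

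At 7 days after irradiation members were called in both directions. Of 34 members, 10 were called higher and 6 lower, against 16.7% and 14.4% of all genes tested, or 31.1% in either direction. Among the 22 integrin subunits 8 were higher and 4 lower, and among the 12 ligand genes 2 were higher and 2 lower, a ligand share near that of all genes. Median log2 fold changes were 0.24 for the integrin subunits, 0.09 for the ligands and 0.01 for all genes tested. By count, 7 of 16 α subunits were higher and 1 lower, while 1 of 6 β subunits was higher and 3 lower. The difference between α and β subunits was not tested. Among these calls, ITGA4 and ITGB2 were lost without untreated library 5 and ITGB8 without untreated library 2. In 18 members the 5 libraries at 7 days did not overlap the untreated ones, against 44.8% of all genes tested, 12 of them higher and 6 lower against 24.4% and 20.4%. Such separation fixes the exact two-sided permutation p at 0.00794, the smallest that 5 against 5 libraries can give, so it adds nothing to these counts.

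Among α subunits that pair with ITGB1, the collagen receptors ITGA2 and ITGA1 showed the highest rises. ITGA2, which with ITGB1 forms the main collagen receptor of platelets and epithelia, measured 93.8, 117, 103, 61.0 and 138 CPM in untreated libraries 1 to 5 and 373, 330.2, 380.5, 362 and 381 CPM at 7 days. Every 7 day library was far above the highest untreated value, 138 CPM (log2 fold change 1.83 ± 0.15, edgeR adjusted p = 6.23e-10). ITGA2 stood at 81.7, 105, 109, 99.98 and 87.6 CPM at 90 minutes and 98.4, 106, 101, 130.1 and 108 CPM in the knockdown. Both ranges overlapped untreated cells, so ITGA2 was high in the 7 day group alone among these 4 groups.

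Its neighbour ITGA1, another collagen-binding subunit, measured 16, 16.7, 16.4, 14.4 and 17.5 CPM in untreated cells and 16.1, 17.8, 16.8, 16.9 and 18.2 CPM at 90 minutes. It rose to 44.9, 43.1, 47.7, 42.5 and 44.7 CPM at 7 days (log2 fold change 1.46 ± 0.06, edgeR adjusted p = 4.87e-14) and stood at 20.9, 22.9, 23.3, 26.4 and 25.9 CPM in the knockdown (log2 fold change 0.56 ± 0.06, edgeR adjusted p = 7.28e-07). The 7 day libraries were above the knockdown libraries, and those above untreated ones, with no overlap at either step. The knockdown value was 0.50 and not called without untreated library 4. It was 0.17 with lane as a factor, a fit in which the untreated level rests on untreated library 5. PELO, a ribosome rescue factor whose gene shares 475 exon bases with ITGA1 on the same strand, was also higher at 7 days, by 0.80 ± 0.07 on the log2 scale (edgeR adjusted p = 1.64e-09). How reads in the shared bases were counted is not given in the sources used here.

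ITGA11, a collagen receptor subunit of mesenchymal cells, went the other way and is a low-count gene here. It measured 1.43, 1.74, 1.55, 1.15 and 3.09 CPM in untreated cells, 1.52, 1.73, 1.55, 1.58 and 1.42 at 90 minutes, 0.556, 0.723, 0.375, 0.822 and 0.609 at 7 days and 0.971, 0.697, 0.867, 0.623 and 0.602 CPM in the knockdown. It was lower at 7 days (log2 fold change -1.49 ± 0.23, edgeR adjusted p = 1.07e-05) and in the knockdown (log2 fold change -1.18 ± 0.23, edgeR adjusted p = 2.80e-04), and neither group overlapped untreated cells. ITGA10, the fourth collagen-binding subunit, was not called against untreated cells, with a log2 fold change of 0.38 ± 0.15 at 7 days. As ITGA2 was far above the other 3 in level, the summed collagen-binding α subunits followed it, from 14.5 ± 3.77 CPM per kb in untreated cells to 49.1 ± 2.71 at 7 days, against 15.5 ± 1.70 in the knockdown.

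Among laminin receptors, ITGA6 rose at 7 days while the more abundant ITGA3 did not pass the size threshold. ITGA6 measured 110.3, 112, 119.6, 97.0 and 136 CPM in untreated libraries and 124, 138, 124, 126 and 127 CPM at 90 minutes. At 7 days it measured 206, 182, 197, 189.5 and 202 CPM, above every other library (log2 fold change 0.76 ± 0.07, edgeR adjusted p = 2.44e-09), and in the knockdown 122, 125, 121, 132 and 127 CPM, overlapping untreated cells. ITGA3 moved by 0.18 ± 0.06 at 7 days and 0.42 ± 0.06 in the knockdown on the log2 scale, neither called. ITGB4, the β subunit that pairs with ITGA6 in epithelial hemidesmosomes, was lower. It measured 11.0, 14.3, 13.4, 10.4 and 20.9 CPM in untreated cells, 10.5, 10.8, 10.9, 11.8 and 11.4 at 90 minutes, 6.11, 5.42, 6.69, 5.08 and 6.02 at 7 days and 9.62, 10.2, 9.69, 10.3 and 10.1 CPM in the knockdown. All 7 day libraries lay under all untreated ones (log2 fold change -1.25 ± 0.13, edgeR adjusted p = 6.83e-08), and the knockdown shift of -0.48 ± 0.13 was not called.

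ITGB3, the β subunit that pairs with ITGAV or, in platelets, with ITGA2B to bind RGD ligands, had the lowest fold change of any member at 7 days. It measured 15.1, 21.8, 19.2, 10.9 and 16.6 CPM in untreated cells and 13.0, 16.1, 20.5, 18.3 and 15.7 CPM at 90 minutes. At 7 days it measured 5.03, 4.11, 3.69, 5.26 and 4.76 CPM, under every other library (log2 fold change -1.87 ± 0.16, edgeR adjusted p = 1.45e-09), a level 3.66-fold lower. The knockdown libraries held 16.6, 20.0, 17.3, 18.7 and 17.7 CPM and overlapped untreated cells. AC068234.1, a readthrough gene sharing 2266 exon bases with ITGB3 on the same strand, also fell by 1.79 on the log2 scale at 7 days (edgeR adjusted p = 3.81e-08), so the reads of these loci cannot be separated here.

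ITGB8, another partner of ITGAV, measured 64.1, 73.2, 68.0, 45.9 and 63.1 CPM in untreated cells and 64.1, 78.1, 72.4, 73.2 and 79.0 CPM at 90 minutes. It measured 48.5, 40.1, 45.7, 41.9 and 41.3 CPM at 7 days (log2 fold change -0.53 ± 0.10, edgeR adjusted p = 9.83e-05) and 38.6, 41.8, 41.8, 51.9 and 42.7 CPM in the knockdown (log2 fold change -0.54 ± 0.10, edgeR adjusted p = 2.26e-04). Untreated library 4, at the low end of its group, overlapped both lower groups. Without untreated library 2 the fold changes were under the size threshold, at -0.47 and -0.48 on the log2 scale. The other RGD-binding members showed no call at 7 days: the 95% interval of the log2 fold change was -0.14 to 0.16 for ITGAV, -0.12 to 0.09 for ITGA5 and -0.07 to 0.29 for ITGB5. ITGB1, the shared partner, changed by -0.23 (95% interval -0.36 to -0.09) and was not called.

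ITGAX and ITGAM, subunits known from leukocytes, were higher at 7 days from low levels. ITGAX, which pairs with ITGB2 as a complement receptor of myeloid cells, measured 4.60, 6.81, 6.83, 4.91 and 7.47 CPM in untreated cells and 5.18, 5.50, 5.57, 5.77 and 5.86 CPM at 90 minutes. It rose to 23.7, 27.1, 25.6, 27.1 and 25.2 CPM at 7 days (log2 fold change 2.08 ± 0.10, edgeR adjusted p = 1.36e-13), the highest fold change of any member, and stood at 13.3, 12.1, 14.0, 13.2 and 13.1 CPM in the knockdown (log2 fold change 1.11 ± 0.10, edgeR adjusted p = 2.08e-08). The groups were fully separated, 7 days above the knockdown and the knockdown above untreated cells. With lane as a factor, a fit in which the untreated level rests on untreated library 5, the knockdown value was 0.70 and no longer called.

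ITGAM, the neighbouring complement receptor subunit, split between the groups. It measured 1.87, 1.88, 2.35, 1.68 and 3.04 CPM in untreated cells, 2.72, 2.68, 1.69, 2.20 and 2.12 at 90 minutes, 5.62, 5.78, 6.23, 6.09 and 6.02 at 7 days and 1.41, 0.879, 1.49, 1.25 and 1.24 CPM in the knockdown. The 7 day libraries were above untreated ones (log2 fold change 1.48 ± 0.14, edgeR adjusted p = 1.17e-08) and the knockdown libraries below them (log2 fold change -0.76 ± 0.17, edgeR adjusted p = 0.00116), with no overlap. With lane as a factor, resting on untreated library 5, the knockdown value of ITGAM was -1.08 and no longer called. ITGB2, the partner of both, measured 1.96, 1.99, 2.08, 1.98 and 0.856 CPM in untreated cells, 2.16, 1.41, 2.0, 1.79 and 1.78 at 90 minutes, 2.31, 2.89, 2.77, 3.10 and 2.69 at 7 days and 1.82, 1.21, 1.14, 1.36 and 1.59 CPM in the knockdown. It was called at 7 days (log2 fold change 0.59 ± 0.17, edgeR adjusted p = 0.00392), but untreated library 5 was low, and without it the log2 fold change was 0.44. Of 5 leukocyte markers 2 passed 1 CPM at 7 days, and the list summed to 22.9 to 27.7 CPM there against 2.38 to 8.47 in untreated cells and 2.44 to 3.5 in the knockdown. The highest untreated sum was that of library 5, which held 6.28 CPM of CD68 against 1.27 to 2.15 in the other 4 and the only CD3E reads of its group, 12 counts. CD68, a lysosomal protein of macrophages, made up nearly all of it at 20.9 to 25.6 CPM, while the pan-leukocyte marker PTPRC was 1.10 to 1.64 CPM at 7 days and 0.824 to 1.62 in untreated cells. In the knockdown, where ITGAM was lower, PTPRC stood at 0.177 to 0.538 CPM, under every untreated library (log2 fold change -1.52 ± 0.24, edgeR adjusted p = 4.46e-05). The part of these markers in the ITGAX, ITGAM and ITGB2 results was not tested.

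ITGA4 and ITGA9, which share fibronectin and VCAM1-type ligands, were called higher at 7 days with less margin. ITGA4 measured 9.17, 9.49, 9.91, 7.35 and 8.99 CPM in untreated cells, 9.04, 10.6, 9.70, 9.78 and 11.0 at 90 minutes, 13.1, 12.1, 12.8, 13.6 and 12.6 at 7 days and 9.92, 9.31, 9.12, 10.5 and 8.54 CPM in the knockdown. The 7 day group did not overlap untreated cells, and its fold change sat at the threshold (log2 fold change 0.51 ± 0.08, edgeR adjusted p = 6.78e-06). Under edgeR's RLE factors and in DESeq2 it was 0.50 and no longer called. The call was also lost when untreated library 4 or 5 or 7 day library 1, 3 or 4 was left out in turn, at 0.42 to 0.50. ITGA9 rests on few reads, with 3, 4, 5, 4 and 7 counts in untreated libraries 1 to 5, 6, 0, 6, 5 and 4 at 90 minutes, 18, 10, 9, 13 and 9 at 7 days and 3, 2, 0, 1 and 1 in the knockdown. Its ratio to untreated cells, from summed counts, was 2.58 at 7 days (95% interval 1.57 to 4.38) and 0.315 in the knockdown (0.114 to 0.757), intervals that cover counting error only. Both were called (edgeR log2 fold changes 1.34 and -1.60, adjusted p = 0.00561 and 0.0455), and untreated library 5, with the most counts of its group, overlapped the 7 day libraries. The knockdown call was lost when untreated library 3, 4 or 5 or knockdown library 2, 3, 4 or 5 was left out in turn. The edgeR adjusted p was then 0.0511 to 0.110, and the lowest over the alternatives was 0.0300. With lane as a factor, a fit that rests on untreated library 5, the 7 day value of ITGA9 was 0.14 and not called.

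**Figure D2:**
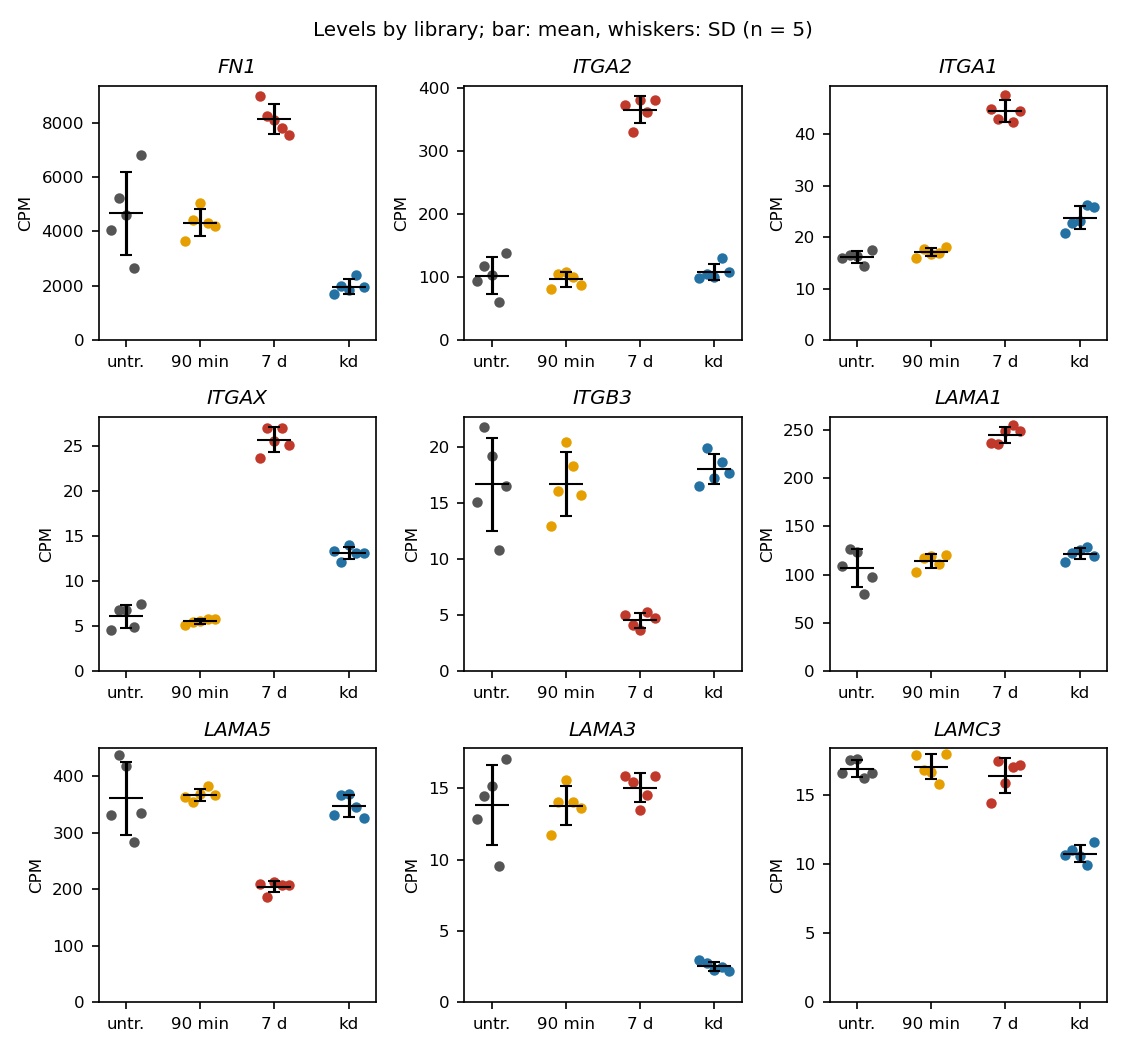
Each panel is a gene and each point a library, as CPM on a linear axis from 0, with the bar at the mean and whiskers at the SD of 5 libraries; untr., untreated; kd, NFKBIA knockdown. FN1 at 7 days (7538 to 8979 CPM) and in the knockdown (1698 to 2408 CPM) lies on either side of the untreated libraries, ITGA2 and LAMA1 are high at 7 days alone, and LAMA3 and LAMC3 are low in the knockdown alone.

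Fibronectin was high at 7 days and low in the knockdown. FN1 measured 4061, 5216, 4611, 2657 and 6810.0 CPM in untreated libraries 1 to 5 and 3661, 4416, 5050.5, 4311 and 4209 CPM at 90 minutes. At 7 days it measured 8979, 8244, 8097, 7808 and 7538 CPM, and in the knockdown 1698, 1988, 1845, 2408 and 1956 CPM. Untreated cells varied most, but no 7 day or knockdown library fell within their range. FN1 was called higher at 7 days (log2 fold change 0.80 ± 0.16, edgeR adjusted p = 1.91e-04) and lower in the knockdown (log2 fold change -1.24 ± 0.16, edgeR adjusted p = 3.60e-06). It had the most counts of any gene in all 5 libraries at 7 days, with 0.764% to 0.898% of all reads, and ranked 6 to 21 in the knockdown with 0.172% to 0.246%. With lane as a factor, a fit in which the untreated level rests on untreated library 5, the 7 day value fell to 0.38 and was not called. The knockdown value stayed called in each of the alternatives.

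The laminin α chains exchanged places at 7 days. LAMA1, the α chain of early basement membranes, measured 109, 126, 123, 79.6 and 97.3 CPM in untreated cells and 102, 117, 119, 111 and 120.0 CPM at 90 minutes. It rose to 237, 235, 249, 254 and 248 CPM at 7 days (log2 fold change 1.19 ± 0.09, edgeR adjusted p = 2.34e-10) and stood at 114, 122, 125, 129 and 119 CPM in the knockdown, where it was not called. LAMA5, the most widespread α chain of adult basement membranes, fell over the same interval.

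LAMA5 measured 332, 437, 418, 283 and 334 CPM in untreated cells and 363, 353, 369, 383 and 367 CPM at 90 minutes. At 7 days it measured 209, 187, 213, 207 and 207 CPM (log2 fold change -0.82 ± 0.09, edgeR adjusted p = 4.50e-08), under every other library, and 331, 366, 369, 346 and 325 CPM in the knockdown. Per kilobase the ratio of LAMA5 to LAMA1 was 3.65 ± 0.206 in untreated cells, 3.49 ± 0.262 at 90 minutes, 0.902 ± 0.0368 at 7 days and 3.08 ± 0.148 in the knockdown. LAMA5 was thus above LAMA1 in all 15 libraries of the other groups and below it in all 5 at 7 days. The summed α chains stayed at 34.7 ± 6.14 CPM per kb in untreated cells and 32.8 ± 1.19 at 7 days, so the LAMA1 share of that sum went from 19.4 ± 0.856% to 47.0 ± 0.987%.

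LAMA4, the α chain of vascular and muscle basement membranes, also fell from a low level. It measured 3.03, 4.07, 2.43, 1.75 and 3.14 CPM in untreated cells, 1.80, 2.54, 3.15, 2.23 and 3.14 at 90 minutes, 0.936, 0.821, 1.18, 1.07 and 0.859 at 7 days and 2.33, 1.61, 2.78, 2.82 and 2.69 CPM in the knockdown. The 7 day libraries were under all others (log2 fold change -1.56 ± 0.22, edgeR adjusted p = 3.66e-06). LAMA2, the muscle α chain, had a 7 day log2 fold change of 0.06 (95% interval -0.17 to 0.30), and no β or γ chain was called. The β chains LAMB3 and LAMB2 were separated from untreated cells without passing the size threshold, at 0.42 and -0.33 on the log2 scale.

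**Figure D3:**
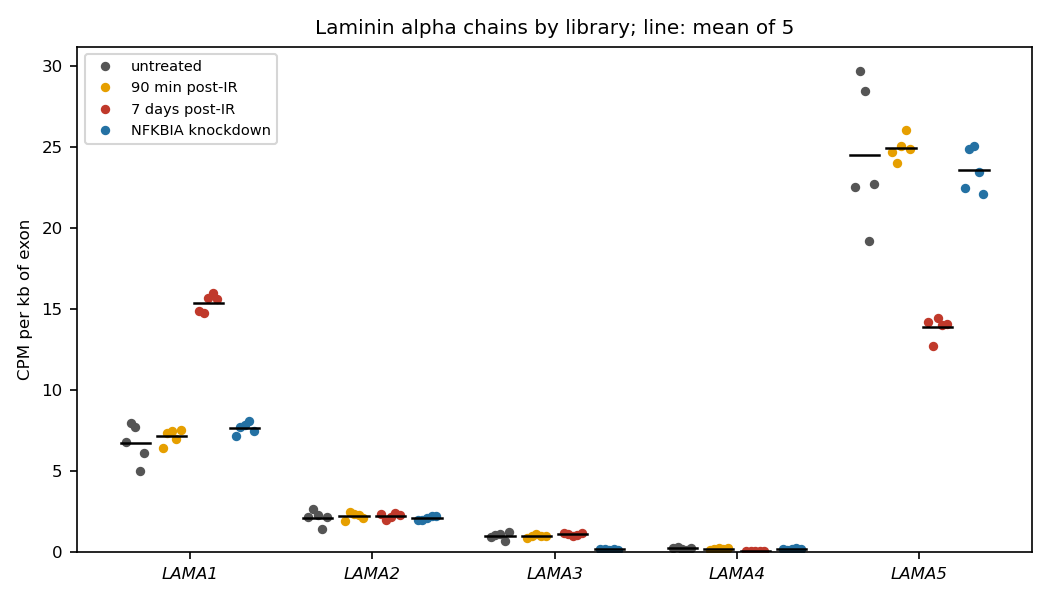
The 5 laminin α chain genes are on the horizontal axis, and each point is a library as CPM per kb of exon, coloured by group, with a line at the mean of 5. LAMA1 and LAMA5 converge at 7 days, to 15.4 and 13.9 CPM per kb on average, while in the other groups LAMA5 is above LAMA1 and the rest lie under 3.

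With NFKBIA knockdown and no irradiation, ligand genes were lower or not called and none was higher. Of 34 members 3 were higher and 9 lower, against 5.18% and 7.53% of all genes tested, or 12.7% in either direction. Among the 12 ligand genes 4 were lower and 0 higher, and among the 22 integrin subunits 3 were higher and 5 lower. Median log2 fold changes were -0.16 for the ligands, 0.05 for the integrin subunits and -0.01 for all genes tested. In 12 members the knockdown and untreated libraries did not overlap, against 24.1% of all genes tested, 4 of them higher and 8 lower against 12.3% and 11.8%. The untreated libraries are the same as in the comparisons with irradiated cells.

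LAMA3, the α chain of the epithelial anchoring laminin, had the lowest fold change of any member in the knockdown. It measured 12.8, 14.4, 15.2, 9.59 and 17.1 CPM in untreated cells, 11.7, 14.0, 15.6, 14.0 and 13.6 at 90 minutes and 15.8, 15.4, 13.5, 14.5 and 15.9 CPM at 7 days. In the knockdown it measured 2.97, 2.73, 2.27, 2.46 and 2.23 CPM, 5.42-fold lower than untreated cells (log2 fold change -2.44 ± 0.13, edgeR adjusted p = 1.37e-11). The highest knockdown library, at 2.97 CPM, was under the lowest of the other 15 libraries, at 9.59 CPM.

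LAMB3, the β chain of the same laminin, measured 299, 313, 325, 337 and 207 CPM in untreated cells, 333, 291, 286, 304 and 303 at 90 minutes, 393, 375, 409, 401 and 401 at 7 days and 231, 217, 229, 183 and 208 CPM in the knockdown. The knockdown value of -0.47 ± 0.09 was under the size threshold (edgeR adjusted p = 4.55e-04). Untreated library 5 was the lowest of its group, and without it LAMB3 was called at -0.59. LAMC1, the common γ chain, moved by -0.08 (95% interval -0.20 to 0.03). Of 4 epithelial markers, EPCAM, CDH1, KRT5 and KRT14, summed levels were 9.05 to 12.6 CPM in untreated cells, 3.62 to 4.20 at 7 days and 3.52 to 4.22 in the knockdown. CDH1, KRT5 and KRT14 were called lower than in untreated cells in both groups and were lower in the knockdown than at 7 days, whereas EPCAM was called lower at 7 days alone. The part of these markers in the knockdown result was not tested.

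LAMC3, a γ chain of nerve and brain basement membranes, measured 16.6, 17.5, 17.6, 16.2 and 16.6 CPM in untreated cells, 17.9, 16.8, 16.7, 15.8 and 18.0 at 90 minutes, 14.5, 17.5, 15.9, 17 and 17.2 at 7 days and 10.7, 11.0, 10.6, 9.93 and 11.6 CPM in the knockdown. It was lower in the knockdown alone (log2 fold change -0.65 ± 0.06, edgeR adjusted p = 3.68e-08). ITGA7, a laminin receptor subunit of muscle, was higher. It measured 77.7, 77.4, 79.9, 74.5 and 44.0 CPM in untreated cells, 73.7, 76.6, 73.6, 78.1 and 76.7 at 90 minutes, 92.1, 91.3, 85.2, 85.4 and 80.4 at 7 days and 117, 117, 113, 112 and 98.0 CPM in the knockdown (log2 fold change 0.65 ± 0.11, edgeR adjusted p = 5.66e-05). Untreated library 5 was far under its group for ITGA7, and without it the log2 fold change was 0.51 and still called; without untreated libraries 4 and 5 it was 0.49 and not called.

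ITGA8, an RGD-binding subunit of mesenchyme, rests on few reads, with 13, 10, 14, 7 and 7 counts in untreated libraries, 9, 14, 17, 10 and 10 at 90 minutes, 20, 12, 12, 14 and 17 at 7 days and 1, 4, 2, 11 and 5 in the knockdown. The groups overlapped, and the call was marginal (log2 fold change -1.07 ± 0.41, edgeR adjusted p = 0.0433). It was lost when untreated library 1 or 3 or knockdown library 1, 2, 3 or 5 was left out in turn. The edgeR adjusted p was then 0.0579 to 0.122, and the lowest over the alternatives was 0.00192. With lane as a factor the untreated level rests on untreated library 5, as lane 2 held the other untreated libraries and no other group. In that fit ITGA1, ITGAX, ITGAM, ITGA8, ITGA9 and ITGB8 were no longer called in the knockdown. ITGA7, ITGA11, LAMA3, LAMC3 and FN1 were among those still called, and ITGB5 and ITGB4 moved past the size threshold, to 0.74 and -1.27.

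**Figure D4:**
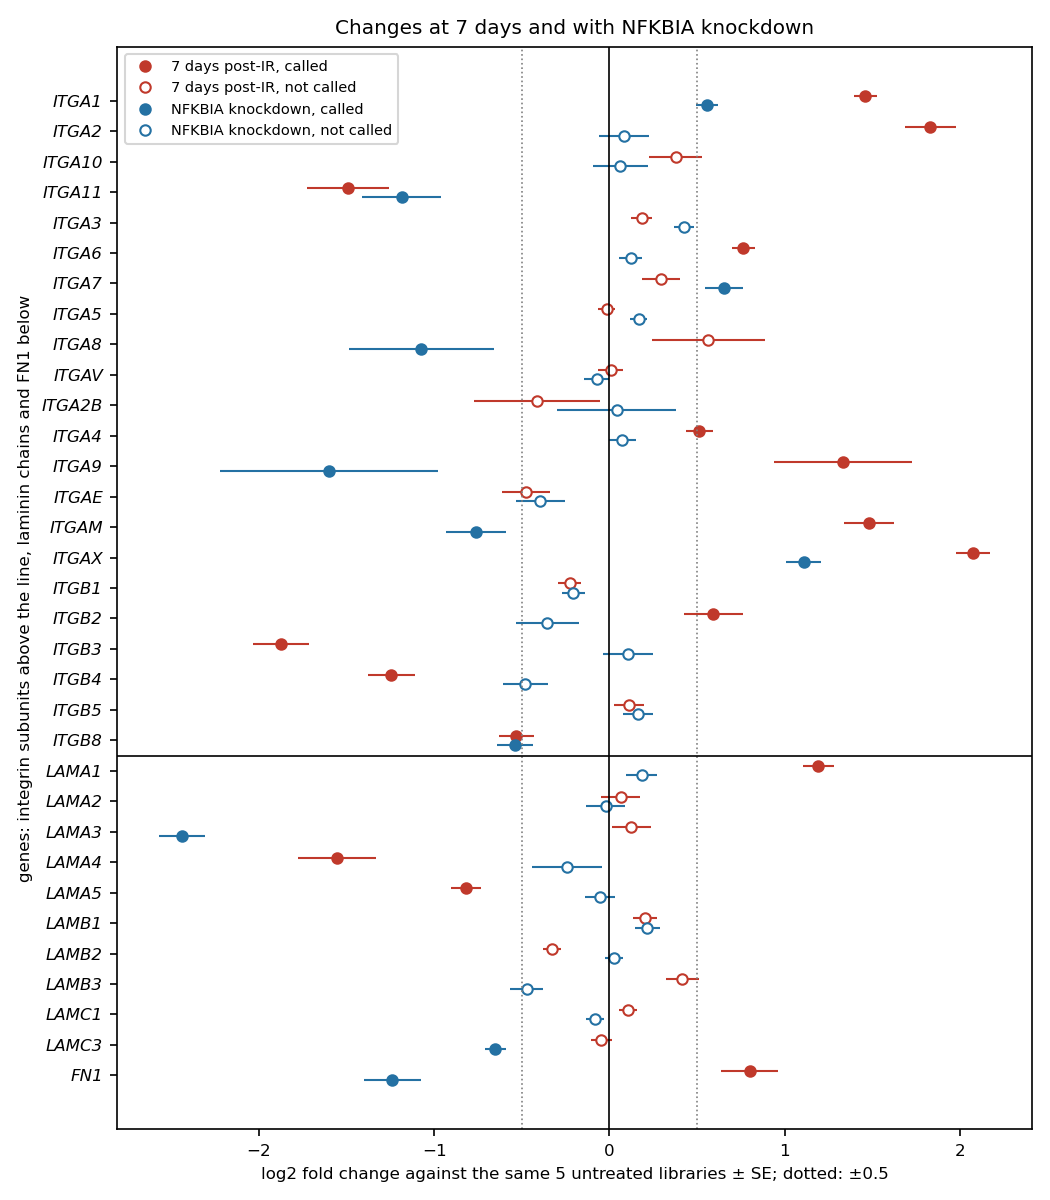
Points are edgeR log2 fold changes of the same 33 genes against the same 5 untreated libraries with their SE, at 7 days in red and for the NFKBIA knockdown in blue; filled points were called and dotted lines mark 0.5 in size. FN1, ITGA9 and ITGAM are filled on opposite sides of 0, ITGA1, ITGAX, ITGA11 and ITGB8 on the same side, and LAMA3 and LAMC3 are filled for the knockdown alone.

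The senescent cells were also compared directly with the knockdown, a contrast in which the untreated libraries enter the shared spread, filter and scaling but not the fold change's groups. Of 34 members 14 were higher at 7 days and 4 lower, against 15.8% and 9.89% of all genes tested, or 25.7% in either direction. The libraries of 23 members did not overlap, against 60.7% of all genes, 15 of them higher and 8 lower against 30.6% and 30.1%. Among ligands 6 were higher at 7 days and 2 lower. The higher ones included LAMA3 (log2 fold change 2.56 ± 0.13, edgeR adjusted p = 6.40e-13), FN1 (log2 fold change 2.04 ± 0.17, edgeR adjusted p = 1.10e-09), LAMA1 by 1.01, LAMB3 by 0.89 and LAMC3 by 0.61, and LAMA4 and LAMA5 were the lower ones, at -1.31 and -0.76. Among receptors 8 were higher, from ITGA6 at 0.64 to ITGA9 at 2.93, and ITGB3 and ITGB4 were lower, at -1.98 and -0.77. ITGA1 and ITGAX, which were above untreated cells in both groups, differed between them by 0.90 ± 0.06 and 0.97 ± 0.09. ITGA11 and ITGB8, lower in both, differed by -0.31 (95% interval -0.87 to 0.25) and 0.01 (-0.21 to 0.22). Within lane 5, which held 7 day libraries 3 to 5 and knockdown library 1, the counts were 14 and 4, against 24.9% of all genes tested there in either direction, with ITGA10 called and ITGA9 not. These comparisons rest on that single knockdown library.

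The late and early time points after irradiation differed in 10 higher and 6 lower members, against 16.8% and 12.6% of all genes tested (29.3% in either direction), and within lane 4, which held 2 libraries at each time, the counts were the same, against 29.1% of all genes tested there. The groups did not overlap in 25 members, against 61.8% of all genes tested, 15 of them higher and 10 lower against 31.9% and 29.9%. ITGA10 joined the higher members here, with 2.08, 1.87, 1.21, 1.58 and 1.39 CPM at 90 minutes and 2.43, 2.37, 2.34, 2.68 and 2.58 CPM at 7 days (log2 fold change 0.60 ± 0.15, edgeR adjusted p = 0.00193). ITGA4 was not called in this comparison, at 0.36 ± 0.08.

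Per kilobase, the summed α subunits were above the summed β subunits at 7 days and in the knockdown and below them in the other groups. Where their ratio stands against 1 depends on the deposited gene widths. The highest α subunit in the knockdown was ITGA3, at 164 ± 4.89 CPM per kb against 122 ± 12.6 in untreated cells, and it was not called. The summed α subunits were 231 ± 21.9 CPM per kb in untreated cells, 237 ± 6.67 at 90 minutes, 300.0 ± 10.2 at 7 days and 282 ± 6.90 in the knockdown. The summed β subunits were 289 ± 18.8, 305 ± 11.1, 262 ± 11.9 and 271 ± 6.44 CPM per kb in the same order. Their ratio was 0.767 to 0.843 in untreated libraries and 0.759 to 0.792 at 90 minutes, and it was above 1 in every library at 7 days (1.12 to 1.18) and in the knockdown (1.02 to 1.06). ITGB1 held 67.6 ± 5.14% of the β sum in untreated cells and 63.7 ± 0.816% at 7 days.

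Fibronectin was also set beside its classical receptor subunit ITGA5. The FN1 to ITGA5 ratio per kb was 8.50 to 19.9 in untreated libraries, 21.0 to 26.0 at 7 days and 4.25 to 6.46 in the knockdown, without overlap. ITGA5 itself measured 137 to 164 CPM in untreated cells, 141 to 157 at 7 days and 163 to 175 in the knockdown. The laminin-binding α subunits summed to 150.2 ± 13.8 CPM per kb in untreated cells, 181 ± 6.24 at 7 days and 199.9 ± 4.83 in the knockdown. This sum was above that of every untreated library in all libraries at 7 days and in the knockdown.

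FN1 led the per kilobase order in untreated, 90 minute and 7 day cells, and in the last group it lay above ITGB1 in every library (469.7 ± 31.5 against 167 ± 9.06 CPM per kb). In the knockdown ITGB1 at 169 ± 5.37 and ITGA3 at 164 ± 4.89, which overlapped each other, stood above FN1 at 114 ± 15.3 CPM per kb. ITGA2 ranked 8 of 38 at 7 days and 14 in untreated cells.

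Genes that act beside these receptors were read from lists set up by function. Of 36 genes of the intracellular adhesion machinery, 0 were called at 90 minutes, against 3.66% of all genes tested, 3 were higher and 13 lower at 7 days, and 1 was higher and 3 lower in the knockdown. All genes tested were called higher and lower in 16.7% and 14.4% at 7 days and in 5.18% and 7.53% in the knockdown, or 12.7% in either direction, and the list's 4 of 36 in the knockdown is near that share. The lowest at 7 days were LIMS2, an adaptor that binds integrin-linked kinase (-2.07 ± 0.14), NEDD9, a scaffold of focal adhesion kinase signalling (-1.25 ± 0.13), and TNS2, a tensin that binds β subunit tails (-1.07 ± 0.10), all on the log2 scale. The higher ones were FERMT1, an epithelial kindlin (0.98 ± 0.10), TNS4 (0.81 ± 0.24) and the kinase PTK2B (0.70 ± 0.11). In the knockdown LIMS2 (-1.26 ± 0.13), NEDD9 (-1.08 ± 0.13) and ZYX, zyxin (-0.51 ± 0.14), were lower and PTK2B higher (0.57 ± 0.11).

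Of 29 other matrix ligands of integrins 22 were tested, and 0 were called at 90 minutes, against 3.66% of all genes, 7 were higher and 3 lower at 7 days, and 1 was higher and 5 lower in the knockdown, against 31.1% of all genes tested called in either direction at 7 days and 12.7% in the knockdown. At 7 days SPP1, the bone matrix protein osteopontin, rose by 2.64 ± 0.11, THBS2, a thrombospondin, by 2.54 ± 0.22 and FBLN2, a fibulin, by 1.33 ± 0.27 on the log2 scale. NID2 and NID1, nidogens that link laminins to collagen networks, and EDIL3, an RGD protein, were the lower ones at -0.76 ± 0.23, -0.52 ± 0.14 and -0.72 ± 0.08. In the knockdown THBS1, another thrombospondin, was lowest at -2.20 ± 0.10, with NID1 at -1.17 ± 0.14 and FBN2, a fibrillin, at -0.78 ± 0.10, and ADAM9, a membrane protease, was the higher one at 0.51 ± 0.05. Directly compared, 12 of the 22 were higher at 7 days than in the knockdown and 2 lower, against 15.8% and 9.89% of all genes tested, and the median difference was 0.57 on the log2 scale.

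Of 18 membrane proteins that associate with integrins, 0 were called at 90 minutes, against 3.66% of all genes, 7 were higher and 5 lower at 7 days, and 0 were higher and 4 lower in the knockdown, beside shares of all genes called of 31.1% at 7 days and 12.7% in the knockdown. The syndecans, heparan sulphate proteoglycans that bind matrix together with integrins, divided: SDC1 was higher at 7 days (1.63 ± 0.08) and SDC2 lower (-1.83 ± 0.08). The tetraspanin CD82 (1.63 ± 0.07) and the hyaluronan receptor CD44 (1.60 ± 0.08) were higher, and BCAM, a laminin receptor specific for LAMA5, was lower (-1.77 ± 0.15), as LAMA5 itself was. DAG1, dystroglycan, another laminin receptor, was lower at 7 days (-1.06 ± 0.17). In the knockdown SDC3 was lowest (-1.46 ± 0.13), followed by SDC2 (-0.78 ± 0.08) and CAV1, the caveolae protein caveolin (-0.63 ± 0.05).

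ITGAE, ITGA2B, ITGB5 and LAMB1 were not called in any comparison with untreated cells. ITGAE, which pairs with ITGB7 on intraepithelial lymphocytes, measured 10.4 to 24 CPM in untreated cells and 12.1 to 13.1 at 7 days, and its exons share 427 bases with HASPIN on the other strand. ITGAE was under the size threshold at 7 days (-0.48 ± 0.14) and passed it, at -0.62, without untreated library 5. ITGA2B, the platelet α subunit, stayed between 0.198 and 0.726 CPM in all libraries. ITGB5, an RGD-receptor β subunit at 373 to 621 CPM in untreated cells, and the common β chain LAMB1 at 376 to 487 CPM moved by 0.11 and 0.20 at 7 days and by 0.16 and 0.22 in the knockdown on the log2 scale.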

How the data were processed

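RNA was sequenced from 20 U2-OS libraries, 5 in each of 4 groups; the study calls them biological replicates, and the labels do not say whether they came from separate cultures. The authors deposited raw whole-number read counts per gene, together with a gene width. The submitters' processing notes name bcl2fastq, Trimmomatic, STAR 2.4.2a and hg19, and the methods describe stranded libraries and single reads; the counter, annotation and strand setting are not given in the sources used here, so reads of overlapping or antisense genes may not be separated. Width, an "other" value deposited per gene, equals the exon union of GENCODE 29 for 28 of 38 members and was used for CPM per kb. Reads that a counter drops as ambiguous or multi-mapped would lower the level of overlapping genes.

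Members were matched by symbol, and the members and lists were chosen with earlier results of these data known. Counts were tested in edgeR 4.0.16 (R 4.3.3; TMM, filterByExpr with a minimum count of 10, glmQLFit and glmQLFTest on all 20 libraries, a term per group), with Benjamini-Hochberg adjustment over 14992 genes; called means adjusted p under 0.05 and log2 fold change above 0.5 in size. SE was derived from the F statistic, and 95% intervals from the SE and the t distribution at 16 residual degrees of freedom. Single members were also compared by the exact two-sided permutation test of mean log2 CPM. DESeq2 1.42.0, other scalings, filters and thresholds, lane, the replicate block and leaving out libraries were alternatives; leaving out untreated libraries 4 and 5 together was chosen after seeing the data. Values are given for members called against untreated cells and for FN1, and of each list up to 3 called genes per direction and comparison with the highest fold change are named. The method was tested on simulated data. A member and a leukocyte marker are included in counts and sums, and their own values are not reported here. RefSeq promoter windows of 24 tested members were searched. Depth was 22535659 to 40390961 counts per library, and intervals on counts cover counting error only.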

Additional observations from a re-analysis of the deposited data

Results flagged for a closer look

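For each of the 34 members and 4 groups, the highest and lowest of the 5 libraries were tested with Dixon's 95% critical value, and chance flags about 1 in 20 such groups. Of 136 groups of libraries 8 held a library far from the others, 4 of them untreated library 5. In that library ITGA7 was low at 44.0 CPM, ITGB2 low at 0.856 CPM, ITGB5 low at 373 CPM and ITGA9 high at 0.333 CPM, against group ranges of 74.5 to 79.9, 1.96 to 2.08, 561 to 621 and 0.0891 to 0.132 CPM in the other 4 untreated libraries. ITGA9 in that library amounts to 7 counts. Elsewhere ITGA6 was high in 90 minute library 2 at 138 CPM, LAMC1 was low in 90 minute library 1 at 428 CPM, LAMA5 was low in 7 day library 2 at 187 CPM, and ITGA7 was low in knockdown library 5 at 98.0 CPM. Several calls that rest on untreated library 5 are given with and without it beside the gene. Without it, ITGA4 at 7 days was also 0.49 on the log2 scale and not called. In the knockdown ITGAE and ITGB2 were then called lower, at -0.54 and -0.51.

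The effect of irradiation against untreated cells differed between the 7 day and the 90 minute time points in 16 members, by the direct edgeR comparison of these groups with Benjamini-Hochberg adjustment. Since the untreated libraries are common to both effects, the difference between the effects is the 7 day against 90 minute log2 fold change. It was 1.38 for ITGA1, 1.92 for ITGA2, 0.60 for ITGA10, 0.61 for ITGA6, 1.62 for ITGA9, 1.38 for ITGAM, 2.21 for ITGAX, 0.58 for ITGB2, 1.10 for LAMA1 and 0.91 for FN1. The negative differences were -1.34 for ITGA11, -1.87 for ITGB3, -0.92 for ITGB4, -0.75 for ITGB8, -1.39 for LAMA4 and -0.84 for LAMA5.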

How the results depend on the processing

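With lane as a factor or within lane 3, the 90 minute comparison gave 5 higher and 3 lower members and 3820 or 3700 genes in place of 0, 0 and 548; ITGB5 and ITGAE turned to 0.52 and 0.60 with the lane factor and to 0.51 and 0.59 within lane 3. In the lane-factor fit of every contrast with untreated cells, as within lane 3, the untreated level rests on library 5. Lane 2 held untreated libraries 1 to 4 alone, so its term absorbs them. At 7 days the lane factor took ITGB5, ITGA7, ITGA10 and LAMB3 past the size threshold, to 0.66, 1.01, 1.29 and 0.89. ITGA4, ITGA9 and FN1 fell under it, to 0.40, 0.14 and 0.38. With the lane factor the knockdown comparison had 4088 genes called. Bonferroni adjustment gave 256 genes at 90 minutes, 899 genes and 4 lower members in the knockdown, 6 higher members at 7 days against 90 minutes, and 2506 genes and 2 lower members at 7 days against the knockdown. With no threshold on the fold change, calls numbered 3191 genes and 1 higher member (ITGAV) at 90 minutes, 9620 genes at 7 days, 6078 genes and 6 higher members in the knockdown, 9131 genes and 10 lower members at 7 days against 90 minutes, and 8609 genes and 8 lower members at 7 days against the knockdown. With a threshold of 1 they numbered 90 genes at 90 minutes; 1826 genes and 6 higher members at 7 days; 524 genes and 1 higher member in the knockdown; 1626 genes, 6 higher and 3 lower members at 7 days against 90 minutes; and 1531 genes, 8 higher and 2 lower members at 7 days against the knockdown. These thresholds by construction leave fewer or more genes; for the lane fits the cause was not tested. Leaving out each library in turn gave 0 members and 460 to 689 genes at 90 minutes, 8 to 10 higher and 6 to 7 lower members and 4608 to 4888 genes at 7 days, 2 to 3 higher and 7 to 11 lower members and 1798 to 2146 genes in the knockdown, 9 to 10 higher and 6 lower members and 4354 to 4481 genes at 7 days against 90 minutes, and 14 higher and 4 lower members and 3814 to 3895 genes at 7 days against the knockdown. Same-numbered libraries did not deviate together (correlations of -0.25 to 0.12, with 2 of 30 pairs over 0.1), and with the replicate block the knockdown had 3 higher and 7 lower members, ITGA8 and ITGA9 no longer being called, while no other member changed its call. Another scaling moved the median of all genes by less than 0.1 on the log2 scale. Depth limits ITGA8, ITGA9 and the 4 members not tested.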
